A study of Homo sapiens with 4 samples.

Results

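The EGFR family and its ligands were examined as 10 genes in SUM159 cells and their NOS2KO clones. These were the genes that carry, by GENCODE release 29, the symbols of 3 receptors (EGFR, ERBB2 and ERBB3) and 7 ligands (AREG, EREG, HBEGF, TGFA, BTC, EPGN and NRG1), out of 57500 genes counted in every library. The rule used their symbols and no measured value, although earlier results of these data were known when they were listed. SUM159 is a triple-negative breast cancer cell line of the metaplastic type, and NOS2 encodes inducible nitric oxide synthase (iNOS). One group was the parental control (1 library, no treatment named), and the other was NOS2KO, with 1 library from each of clones 1, 5 and 6. To make the clones, SUM159 cells received a double nickase plasmid against NOS2, and puromycin-resistant clones were picked by their iNOS immunoblot and their nitrite and nitrate. A clone is the progeny of few cells and the labels name no transfected or puromycin-treated control, so that the loss of NOS2, the selection and the choice of clone cannot be told apart in the comparison of clones with parental cells. The comparison asks how the NOS2KO clones of SUM159 differ in their mRNA from the parental cells.

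Messenger RNA was enriched by its poly(A) tail and sequenced in pairs, and between 90467395 and 122171287 reads per library were counted on genes. Levels are given as counts per 1000000 (CPM) relative to TMM-scaled library sizes, and 3 counts, the floor used here for detection, correspond to 0.0246 to 0.0332 CPM of a whole library. The targeted gene, NOS2, had 2 counts in the parental library against 3 (clone 1), 18 (labelled clone 5) and 1 (clone 6). With 2 counts in the parental library a loss of NOS2 mRNA could not be seen, so NOS2 mRNA could not check the labels. The clones had been picked by iNOS protein, nitrite and nitrate and not by mRNA. The library with 18 counts, the most of the 4, is called the library labelled clone 5, or labelled clone 5. ESR1 had at most 79 counts and PGR at most 3 in any library, while ERBB2 was detected in all 4. The mesenchymal markers VIM, ZEB1, FN1 and CDH2 were all at 39.5 CPM or more, and EPCAM and CDH1 had at most 44 counts. PTPRC, the leukocyte marker CD45, stood at 4.45 CPM in the parental library and at 68.4, 105 and 41.7 CPM in the clones, taken in the order 1, 5 and 6 here and wherever they are not named. Of 9 leukocyte markers put together after PTPRC had been seen, 3 reached 1 CPM in a library and 2 had 3 counts or fewer in every library. Their summed level was 23.5 CPM in the parental library and 63.6 to 134 CPM in the clones, and without PTPRC it was 19.0 CPM against 5.86, 28.2 and 21.9 CPM. CD14, a monocyte marker, had 12.8 CPM in the parental library against 2.29, 4.28 and 11.3 CPM. The summed level of 7 endothelial markers was 16.5 and 11.1 to 17.1 CPM, but single markers moved in opposite directions. PECAM1 had 16.1 CPM in the parental library and 13.9, 7.06 and 8.64 CPM in the clones. In the library labelled clone 5, CDH5, VWF and TEK had 372, 405 and 215 counts, against 1, 19 and 5 in the parental library. They had 12, 32 and 4 counts in clone 1 and 16, 212 and 2 in clone 6, so that VWF was also higher in clone 6. The part of all these markers in the results was not tested.

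The receptors of the EGFR family are tyrosine kinases that span the cell membrane and work in pairs. The ligands are made as membrane-anchored precursors and are freed by proteases of the ADAM family, after which they bind receptors on the same cell or on neighbouring cells and start signalling through RAS and ERK, PI3K and AKT, and STAT proteins. EGFR is often abundant in triple-negative and basal-like breast cancer, and cells that make both EGFR and its ligands can stimulate themselves.

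Epiregulin (EREG) and amphiregulin (AREG) were far lower in every clone than in the parental library, by 4.64-fold to 25.6-fold for EREG and by 16.99-fold to 101-fold for AREG. TGFA was also lower in all 3 clones, most of all in clone 6, at 58.5-fold. EGFR was lower by 1.28-fold to 1.81-fold, and ERBB2 was higher by 1.15-fold to 2.20-fold. ERBB3 was near 1 CPM or less throughout, EPGN was at or near the floor of detection, and HBEGF, BTC and NRG1 stood on both sides of the parental level.

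Across all genes, the 3 clones were tested against the parental cells in edgeR's quasi-likelihood test, and p were adjusted by Benjamini-Hochberg over the 22511 genes that passed the filter on low counts. With 1 parental library the spread comes from the clones alone and is taken to hold for the parental cells, and 0.25 is the smallest p of an exact permutation test of 1 sample against 3. Nothing says that the libraries came from repeated cultures, so that the spread is that between clones, and lower mRNA in each cell cannot be told apart from a smaller share of cells that make it. Of the 10 genes 9 passed the filter on low counts, which EPGN did not. None of the 9 reached an adjusted p of 0.05 in edgeR, against 0.00444% of all genes (1 gene), and before adjustment 2 did, against 11.5% of all genes. The fold criterion used here takes genes past 2-fold either way whose p before adjustment, in edgeR's test, is under 0.05. The study gave the same cutoffs for this comparison in a plot of genes regulated by AP-1 transcription factors. It used a Wald test there and did not say whether p was adjusted. By the fold criterion 2 of the 9 were called, AREG and EREG, both lower. Of all genes 9.58% met this criterion, and 5.34% met it in the lower direction. DESeq2's Wald test put AREG and EREG under an adjusted p of 0.05, and it did so for 3.05% of the genes it adjusted in the lower direction.

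**Figure D1:**
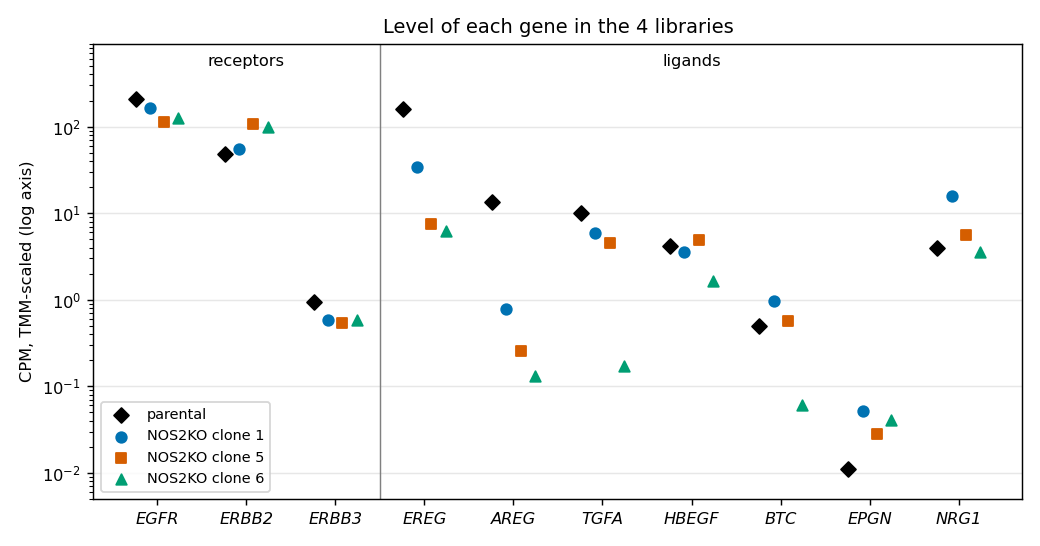
Level of each of the 10 genes in the 4 libraries, in TMM-scaled CPM on a log axis, with 1 point per library, receptors on the left and ligands on the right. EREG and AREG lie highest in the parental library (159 and 13.3 CPM), TGFA lies lowest in clone 6 (0.172 CPM), and the parental and clone points of the 3 receptors lie closer together.

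EGFR (ENSG00000146648, chr7:55019021-55211628 of GRCh38, plus strand), the receptor of AREG, EREG, TGFA and HBEGF, had 207 CPM in the parental library against 162 (clone 1), 114 (labelled clone 5) and 127 (clone 6). The parental library was the highest and the clones did not overlap it. Its log2 ratio to parental cells was -0.35 (exact 95% interval -0.38 to -0.32), -0.86 (-0.89 to -0.82) and -0.70 (-0.73 to -0.67) in the same order of clones. These intervals come from the counts of 1 library against another and cover counting error only. Over the 3 clones the fitted log2 fold change was -0.62 ± 0.33 (SE), with an adjusted p of 0.518 in edgeR's quasi-likelihood test, which does not pass the threshold. The clones themselves spanned -0.35 to -0.86, a narrower range than the fitted difference.

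ERBB2 (ENSG00000141736, chr17:39687914-39730426, plus strand), which binds no ligand itself and pairs with the other receptors, had 48.3 CPM in the parental library. The clones had 55.6, 106 and 99.1 CPM. All 3 clones were above the parental library, and clone 1 was much closer to it than to the other two. The log2 ratios were 0.20 (0.15 to 0.26), 1.14 (1.09 to 1.19) and 1.04 (0.99 to 1.09), and the library labelled clone 5 stood above clone 1 by 0.93 on the log2 scale (0.89 to 0.98). The fitted log2 fold change was 0.85 ± 0.45 (SE), with an adjusted p of 0.542 in edgeR's quasi-likelihood test. Without clone 1 it was 1.09 and met the fold criterion, at an adjusted p of 0.141. The strand setting of the counting was not given in the sources used here, and 571 exonic bases of ERBB2 (5.53%) overlap MIEN1 and 194 (1.88%) overlap PGAP3, both on the other strand. MIEN1 had 28.0 CPM in the parental library and 45.1, 35.7 and 39.7 CPM in the clones, highest in clone 1. PGAP3 had 12.4, 11.4, 22.2 and 19.0 CPM in the same order, and the part of either gene in the ERBB2 counts was not tested.

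ERBB3 (ENSG00000065361, chr12:56079857-56103505, plus strand), the weakly active partner that binds neuregulins, had 84 counts in parental cells against 66 in clone 1 and 58 in each of the others. These counts are 0.929, 0.575, 0.544 and 0.588 CPM. The clones lay close together and all below the parental library, by -0.69 (-1.18 to -0.21), -0.77 (-1.28 to -0.27) and -0.66 (-1.17 to -0.16) on the log2 scale. The fitted log2 fold change of -0.71 ± 0.58 (SE) had an adjusted p of 0.651 in edgeR's quasi-likelihood test. ERBB4, the other neuregulin receptor, was of the same order of abundance, with 0.465 CPM in the parental library and 0.578 to 0.663 CPM in the clones.

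EREG (ENSG00000124882, chr4:74365143-74388751, plus strand), a ligand of EGFR and ERBB4, had 14401 counts in the parental library against 3940 (clone 1), 796 (labelled clone 5) and 614 (clone 6). In CPM it had 159, 34.4, 7.47 and 6.23. The parental library was the highest, clone 1 lay between, and the other 2 clones were close to each other at the bottom. The log2 ratios to the parental library were -2.21 (-2.26 to -2.16), -4.42 (-4.52 to -4.31) and -4.68 (-4.80 to -4.56). EREG met the fold criterion with a fitted log2 fold change of -3.31 ± 1.08 (SE), at an adjusted p of 0.357 in edgeR's quasi-likelihood test and 0.0364 in DESeq2's Wald test. With a clone left out in turn it ranged from -2.93 (without clone 6) to -4.54 (without clone 1). Clone 1 also differed from the other clones, since the library labelled clone 5 had -2.20 (-2.31 to -2.09) and clone 6 had -2.46 (-2.59 to -2.34) relative to clone 1.

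AREG (ENSG00000109321, chr4:74445134-74455009, plus strand), an EGFR ligand known from mammary gland development, had 1205 counts in the parental library against 90 (clone 1), 27 (labelled clone 5) and 13 (clone 6). In CPM these were 13.3, 0.785, 0.253 and 0.132. The clones followed the same order as for EREG, and each was far below the parental library. The log2 ratios were -4.09 (-4.41 to -3.78), -5.72 (-6.33 to -5.17) and -6.66 (-7.57 to -5.88). AREG met the fold criterion with a fitted log2 fold change of -5.09 ± 1.06 (SE), at an adjusted p of 0.306 in edgeR's quasi-likelihood test and 0.000169 in DESeq2's Wald test. It ranged from -4.68 (without clone 6) to -6.10 (without clone 1) when a clone was left out. Clone 6 and the library labelled clone 5 were not distinguishable in AREG at this depth, with a log2 ratio of -0.94 (-2.02 to 0.06). In each clone the interval of AREG lay below that of EREG, and EREG per AREG, both per length of exon, was 3.45 in the parental library and 12.6, 8.498 and 13.6 in the clones.

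**Figure D2:**
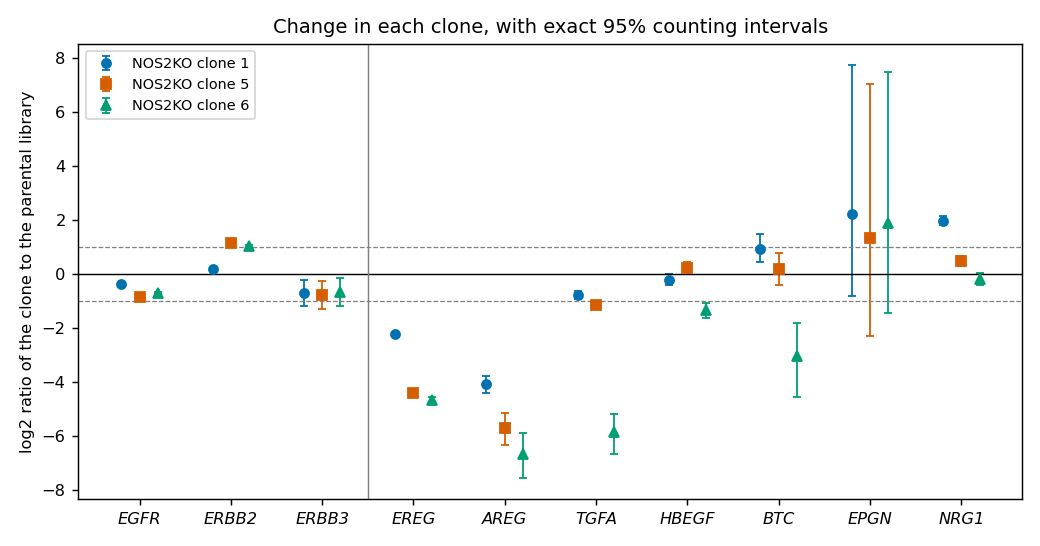
Log2 ratio of each clone to the parental library for the 10 genes, with exact 95% intervals of the counts as error bars and dashed lines at a ratio of 2-fold. AREG and EREG lie below the lower line in all 3 clones, TGFA in 2 of them, and the intervals of EPGN (1 to 6 counts) span 0.

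The study asked about AP-1, the transcription factor family of JUN and FOS, and the 250 bases before the start of each gene were therefore searched for AP-1 and other motifs. RefSeq promoters (GRCh38.p14) were given for 8 of the 10 genes, and not for ERBB3 and NRG1. The motifs were AP-1 (TGANTCA), a cyclic AMP response element or CRE (TGACGTCA), TEAD (GGAATG), SP1 (GGGCGG), NF-kappaB (GGG and CC with 5 bases of any kind between them) and ETS (CCGGAA), on both strands, and among 35116 promoters they were present in 6.57%, 1.65%, 11.9%, 42.6%, 54.4% and 14.5%. The promoters of the pair of ligands that met the fold criterion and of ERBB2, the receptor that was higher in all 3 clones, are shown 5′ to 3′ with every match in capitals, at chr4:74364895-74365144 for EREG, chr4:74444886-74445135 for AREG and chr17:39687844-39688093 for ERBB2, all on the plus strand.
EREG: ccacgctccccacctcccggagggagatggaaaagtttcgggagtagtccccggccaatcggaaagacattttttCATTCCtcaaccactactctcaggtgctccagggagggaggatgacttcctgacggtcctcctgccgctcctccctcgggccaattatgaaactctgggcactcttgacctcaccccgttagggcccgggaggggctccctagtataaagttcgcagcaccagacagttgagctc
AREG: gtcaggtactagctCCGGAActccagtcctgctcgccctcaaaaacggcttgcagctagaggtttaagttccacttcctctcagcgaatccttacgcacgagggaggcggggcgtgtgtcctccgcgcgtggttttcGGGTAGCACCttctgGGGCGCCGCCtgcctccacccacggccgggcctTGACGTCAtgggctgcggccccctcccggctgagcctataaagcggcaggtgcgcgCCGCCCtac
ERBB2: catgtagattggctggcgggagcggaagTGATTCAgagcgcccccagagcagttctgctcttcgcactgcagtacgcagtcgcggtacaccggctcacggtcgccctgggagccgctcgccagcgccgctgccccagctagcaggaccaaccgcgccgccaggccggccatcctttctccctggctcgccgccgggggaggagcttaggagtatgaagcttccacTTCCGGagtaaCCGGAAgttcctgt
The EREG window held a TEAD match on its minus strand, 175 to 170 bases before the start, and no AP-1, CRE, SP1, NF-kappaB or ETS match. The AREG window held a CRE match at 65 to 58 bases before the start, together with 2 NF-kappaB matches, an SP1 match and an ETS match, and no AP-1 match. The ERBB2 window held an AP-1 match at 222 to 216 bases before the start and 2 ETS matches. Of the other members, EGFR had an AP-1 match in 1 of its 2 promoters (2 matches), and HBEGF, TGFA, BTC and EPGN had none. A match describes letters in these windows and no binding was measured.

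EREG and AREG are neighbours on chromosome 4, with starts 79991 bases apart, and EPGN and BTC lie in the same region (chr4:74308473-74315307 on the plus strand and chr4:74744759-74794686 on the minus strand). Of the 8 other genes that start within 1000 kb of EREG and reached 1 CPM in a library, the medians of the log2 ratios were -2.04, -4.42 and -4.18 in the clones. Over all 15280 genes with at least 1 CPM the medians were -0.07, -0.05 and -0.06. The low neighbours were AREG and the chemokine genes CXCL8, CXCL1, CXCL3 and CXCL2, which attract neutrophils. CXCL8 had 257 CPM in the parental library against 43.8 (clone 1), 2.55 (labelled clone 5) and 1.68 (clone 6). CXCL2 had 130.4, 45.4, 5.46 and 7.49 CPM. Past a log2 ratio of -1, 5 of the 8 neighbours, AREG among them, were lower in clone 1 and 6 in each of the other clones. Of all 15280 genes, 2487, 2040 and 2153 were lower by that much in the clones. The gene added to the 5 was MTHFD2L in the library labelled clone 5 (-1.04) and PARM1 in clone 6. MTHFD2L, which lies between CXCL2 and EREG, had 15.8 CPM in the parental library against 20.3 (clone 1), 7.66 (labelled clone 5) and 10.5 (clone 6). AFP was above the parental level in all 3 clones, and PARM1 was above it by 2.29 and 1.55 on the log2 scale in clone 1 and in the library labelled clone 5 and differed by -1.97 in clone 6, with at most 301 counts for either gene. The neighbours of EGFR (12 genes, medians -0.16, -0.48 and -0.48), ERBB2 (44 genes, -0.11, -0.06 and 0.09) and TGFA (22 genes, 0.18, -0.08 and 0.15) gave medians nearer to 0 than those of EREG. The EGFR medians had the same sign as EGFR itself in every clone. For HBEGF (54 genes) they were 0.18, 0.39 and 1.22, and for ERBB3 (53 genes) -0.02, 0.49 and 0.39. For NRG1 (12 genes) they were -0.42, -0.10 and -0.06. BTC, which shares neighbours with EREG, had -0.39, -0.94 and -1.40 (12 genes). Gene copy number was not measured.

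**Figure D3:**
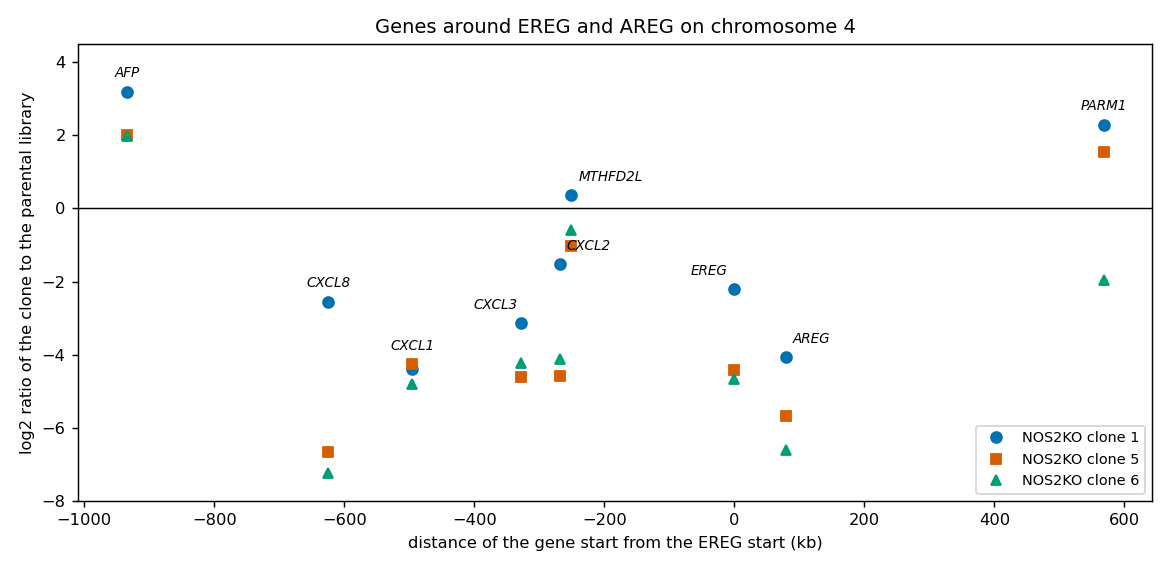
Log2 ratio of each clone to the parental library for genes around EREG and AREG that reached 1 CPM, against the distance of the gene start from that of EREG in kb. The 4 CXCL genes, EREG and AREG lie below 0 in all 3 clones, while MTHFD2L is at 0.36 in clone 1 and AFP is above 0 in all 3.

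TGFA (ENSG00000163235, chr2:70447280-70554193, minus strand), which encodes transforming growth factor alpha, had 912 counts in the parental library against 680 (clone 1), 486 (labelled clone 5) and 17 (clone 6). In CPM it had 10.1, 5.93, 4.56 and 0.172. The parental library was above all clones, and clone 6 stood far below the other clones. The log2 ratios were -0.77 (-0.91 to -0.62), -1.15 (-1.31 to -0.99) and -5.87 (-6.66 to -5.18). The clones were spread widely, and the fitted log2 fold change of -1.505 ± 1.66 (SE) had an adjusted p of 0.731 in edgeR's quasi-likelihood test. Without clone 6 it was -0.94.

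HBEGF (ENSG00000113070, chr5:140332843-140346631, minus strand), heparin-binding EGF-like growth factor, had 4.18 CPM in the parental library against 3.59 (clone 1), 4.94 (labelled clone 5) and 1.65 (clone 6). The parental level lay inside the range of the clones, and clone 6 was again the lowest. The log2 ratios were -0.22 (-0.42 to -0.01), 0.24 (0.05 to 0.44) and -1.34 (-1.61 to -1.07). The fitted log2 fold change was -0.30 ± 0.74 (SE), with an adjusted p of 0.894 in edgeR's quasi-likelihood test.

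BTC, betacellulin (ENSG00000174808), had 45 counts in the parental library against 110 (clone 1), 60 (labelled clone 5) and 6 (clone 6), or 0.498, 0.959, 0.563 and 0.0609 CPM. Clone 1 was the highest and clone 6 the lowest, on either side of the parental library. The log2 ratios were 0.95 (0.43 to 1.48), 0.18 (-0.40 to 0.77) and -3.03 (-4.55 to -1.80), and the fitted log2 fold change was 0.09 ± 1.43 (SE). EPGN, epigen (ENSG00000182585), had 1, 6, 3 and 4 counts. Its log2 ratios of 2.24 (-0.80 to 7.77), 1.35 (-2.29 to 7.06) and 1.87 (-1.46 to 7.497) all had intervals that held 0, so no difference was detectable at this depth.

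NRG1 (ENSG00000157168, chr8:31639386-32767959, plus strand), neuregulin 1, a ligand of ERBB3 and ERBB4, had 4.005 CPM in the parental library against 15.7 (clone 1), 5.58 (labelled clone 5) and 3.52 (clone 6). Clone 1 stood apart above the other 3 libraries. The log2 ratios were 1.97 (1.81 to 2.14), 0.48 (0.29 to 0.67) and -0.19 (-0.40 to 0.03). The fitted log2 fold change of 1.05 ± 0.93 (SE) had an adjusted p of 0.710 in edgeR's quasi-likelihood test, and it was 0.19 without clone 1.

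Each clone was also read against the parental library alone, counting log2 ratios past 1 or -1 among genes that reached 10 CPM in either library. These 3 comparisons share the parental library. AREG and TGFA reached 10 CPM in the parental library alone, and NRG1 in clone 1 alone. In the pairs with labelled clone 5 and clone 6, EREG also reached it through the parental library alone. Such genes entered the count through the library where they were high, so the counts describe the members and test nothing. In clone 1, 2 of 6 members were lower (EREG and AREG, against 11.1% of all genes) and 1 was higher (NRG1, against 11.5%). In the library labelled clone 5, 3 of 5 were lower (EREG, AREG and TGFA, against 12.8%) and ERBB2 was higher (10.3%). In clone 6 the same 3 of 5 were lower (12.3%) and ERBB2 was higher (10.7%). With the minimum lowered to 1 CPM, a setting added after the values were seen, HBEGF joined them in clone 6, as 4 of 7 lower against 13.7%. Over the 3 clones together, 2 of 6 members with at least 10 CPM were lower past a log2 ratio of -1 in every clone (AREG and EREG) against 5.24% of all genes, and 2 of 7 against 5.92% with the minimum at 1 CPM. Lower by any amount in every clone were 4 of 6 (EGFR, AREG, EREG and TGFA), against 37.3%, and higher by any amount was ERBB2, against 27.8%. In these counts too, AREG and TGFA passed the minimum of 10 CPM only through the parental library. AREG passed that of 1 CPM in the parental library alone as well. The counts were not tested.

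The members varied among the clones. Relative to clone 1, EREG and NRG1 were lower past a log2 ratio of -1 in both other clones, 2 of 4 members in each, against 8.30% and 7.96% of all genes. Both genes reached 10 CPM in these pairs through clone 1 alone, so they were counted through the library where they were high. NRG1 differed from clone 1 by -1.4955 (-1.63 to -1.36) in the library labelled clone 5 and by -2.16 (-2.33 to -1.99) in clone 6. Between clone 6 and the library labelled clone 5, neither of the 2 members with at least 10 CPM (EGFR and ERBB2) was lower by that much, against 2.45%. With the minimum at 1 CPM it was 2 of 6, TGFA at -4.72 (-5.52 to -4.03) and HBEGF at -1.58 (-1.84 to -1.32), against 6.47%. TGFA reached that minimum in the library labelled clone 5 alone of this pair.

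Levels were set between genes after division by exon length, which takes all exons of a gene together. Which transcripts were expressed was not tested, so the counting intervals do not settle the order of genes with close values. In CPM per kilobase of exon EREG was the most abundant member in the parental library (27.9), ahead of EGFR (16.5), AREG (8.09) and ERBB2 (4.68). TGFA (2.03), HBEGF (1.39), NRG1 (0.354), BTC (0.177), ERBB3 (0.107) and EPGN (0.0061) followed, and each neighbouring pair in this order differed beyond its counting interval. In clone 1 EGFR led (13.0), followed by EREG (6.01), ERBB2 (5.39) and NRG1 (1.39), and TGFA and HBEGF could not be separated (both 1.19). In the library labelled clone 5, ERBB2 (10.3) was above EGFR (9.14), and HBEGF (1.64) was the first of the ligands, ahead of EREG (1.31). In clone 6 EGFR (10.2) and ERBB2 (9.60) led, with EREG at 1.09 and HBEGF at 0.548. BTC and AREG could not be separated in the library labelled clone 5, nor AREG and ERBB3, TGFA and EPGN, or EPGN and BTC in clone 6. EGFR per ERBB2 on this scale was 3.53 in the parental library against 2.40 (clone 1), 0.888 (labelled clone 5) and 1.06 (clone 6).

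Over the 11 ligand genes of the family, which add EGF, NRG2, NRG3 and NRG4 to the members, the summed level was 40.5 CPM per kilobase in the parental library against 12.6 (clone 1), 7.05 (labelled clone 5) and 3.11 (clone 6). The parental sum was thus 3.20-fold, 5.75-fold and 13.0-fold higher than that of the clones. EREG and AREG made up 88.7% of the sum in the parental library and 51.3%, 20.7% and 37.6% of it in the clones. HBEGF made up 3.42% of the parental sum and 23.2% of that of the library labelled clone 5, where its own level was 1.64 against 1.39 CPM per kilobase. NRG1 made up 0.872% of the parental sum and between 6.99% and 10.98% of those of the clones, with a level of 0.354 CPM per kilobase in the parental library and 1.39, 0.493 and 0.311 in the clones. Per EGFR, the summed level of all 11 ligand genes was 2.45 in the parental library and 0.976, 0.772 and 0.306 in the clones. That ratio is not one of EGFR ligands alone, since the sum includes the neuregulin genes NRG1, NRG2, NRG3 and NRG4. Of these, NRG4 made up 0.125% of the parental sum and 9.15%, 8.38% and 13.9% of those of the clones. These sums are of mRNA, and no ligand protein was measured here.

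**Figure D4:**
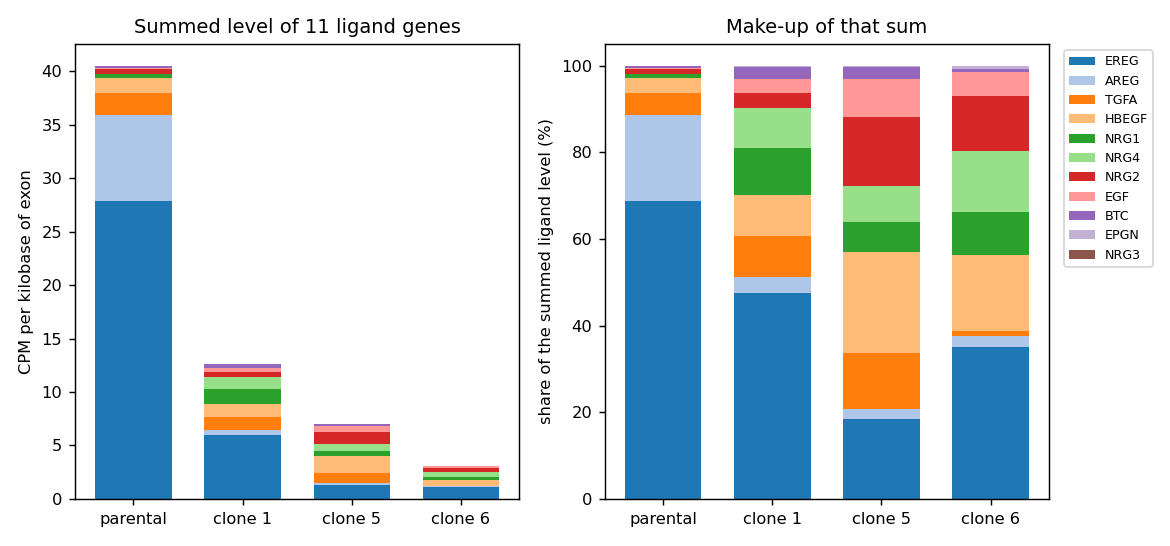
Summed level of 11 ligand genes in CPM per kilobase of exon (left, bars from 0) and the share of each gene in that sum in percent (right), with 1 bar per library. The sum is 40.5 in the parental library and 12.6 or less in the clones, and the share of EREG and AREG is 88.7% in the parental library and 51.3% or less in the clones.

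Among the other ligands, NRG4, a ligand of ERBB4, had 23 counts in the parental library against 668 (clone 1), 317 (labelled clone 5) and 214 (clone 6). It was higher in all 3 clones, by 4.52 (3.92 to 5.18), 3.55 (2.94 to 4.23) and 3.09 (2.47 to 3.78) on the log2 scale, and met the fold criterion with a fitted log2 fold change of 3.84 ± 0.76 (SE), at an adjusted p of 0.332 in edgeR's quasi-likelihood test and 0.000368 in DESeq2's Wald test. EGF, the founding ligand of the family, had 0.509 CPM in the parental library and 2.54, 3.76 and 1.04 CPM in the clones, and did not meet the criterion. NRG3 had at most 4 counts and was not tested. Of the 9 ligands tested 2 were lower and 1 higher by the criterion, and their median log2 fold change was 0.09, against 0.10 over all genes tested.

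Lists of genes around the receptors and ligands, written with earlier results of these data known, gave the surroundings. Of the 4 receptors none met the criterion, with a median log2 fold change of -0.10. Of 11 genes of ligand shedding, 2 were lower by the criterion and none higher (18.2% called, against 9.58% of all genes), and 1 was lower without clone 6. ADAM17, the protease that frees AREG, EREG, TGFA and HBEGF, had 79.7 CPM in the parental library and 31.4, 47.1 and 37.6 CPM in the clones, and its fitted log2 fold change was -1.04 ± 0.33 (SE). RHBDF2, which encodes the iRhom2 protein that brings ADAM17 to the cell surface, had 56.8, 10.3, 18.5 and 20.9 CPM and a log2 fold change of -1.78 ± 0.48 (SE). Both were lower in all 3 clones, at adjusted p of 0.365 and 0.332 in edgeR's quasi-likelihood test. ADAM10, which frees EGF and betacellulin, had 109 CPM in the parental library and 99.6, 191 and 135 CPM in the clones, and the median of the list was 0.33.

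Of 30 genes of proximal signalling 2 were lower (1 without clone 6 or labelled clone 5, and 4 genes met the criterion without clone 1), with a median of -0.13, and this share (6.67%) was below that of all genes. GAB2, a docking protein under the receptors, had 13.3 CPM in the parental library and 4.19, 3.91 and 4.38 CPM in the clones (-1.68 ± 0.41, SE). MAP2K1, the kinase MEK1, had 141, 79.4, 69.6 and 60.3 CPM (-1.01 ± 0.29, SE), and lay at the edge of the criterion.

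Of 20 tested genes of receptor attenuation 3 were lower and none higher (15.0%), with a median of -0.50, and 6 met the criterion without clone 1. PTPN12, a tyrosine phosphatase, had 222 CPM in the parental library and 76.9, 71.0 and 65.4 CPM in the clones, at -1.64 ± 0.27 (SE) on the log2 scale. SH3KBP1, an adaptor that binds CBL in receptor endocytosis, had 523, 199.5, 203 and 229 CPM (-1.31 ± 0.29, SE). SPRY4, a Sprouty inhibitor of RAS and ERK signalling, had 105, 52.0, 46.7 and 55.8 CPM (-1.03 ± 0.27, SE). The clones lay close together in all 3 genes, and the adjusted p were 0.275, 0.324 and 0.332 in edgeR's quasi-likelihood test. Over all genes, 9.58% met the criterion.

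Of 10 genes that ERK signalling is known to induce, 3 were lower and none higher (30.0%, against 9.58% of all genes), with a median of -0.37. The median log2 ratios in the single clones were -0.91, 0.03 and -0.56, so that the list was not lower as a whole in the library labelled clone 5. SPRY4 is in this list too. ETV4, an ETS transcription factor, had 82.2 CPM in the parental library against 21.1 (clone 1), 12.3 (labelled clone 5) and 13.4 (clone 6). Its relative ETV5 had 144.9, 45.2, 51.3 and 37.3 CPM. Both were lower in every clone, with log2 fold changes of -2.40 ± 0.41 and -1.70 ± 0.30 (SE), each at an adjusted p of 0.275 in edgeR's quasi-likelihood test. The remaining 7 did not meet the criterion, among them DUSP6, an ERK phosphatase, with 37.4 CPM in the parental library and 21.5, 39.9 and 26.4 CPM in the clones. By any amount, 5 of the 10 genes of the list were lower in all 3 clones and 2 were higher, EPHA4 and SPRY2. Of all 22511 genes tested, 6885 were lower and 6410 higher in all 3 clones. EPHA4 had 9.79 CPM in the parental library and 13.0, 37.3 and 25.9 CPM in the clones. By edgeR's quasi-likelihood test no gene of these lists passed an adjusted p of 0.05. Before adjustment 3 ligands, 3 genes of shedding, 2 of proximal signalling, 4 of attenuation and 3 of ERK output did, of 9, 11, 30, 20 and 10 tested, against 11.5% of all genes. DESeq2's adjusted p did so for 3, 1, 1, 2 and 2 genes, against 6.18% of the genes it adjusted. In the same order of lists these were AREG, EREG and NRG4, then RHBDF2, then GAB2, then PTPN12 and SH3KBP1, and last ETV4 and ETV5. Each list holds few genes, and these counts, which take both directions, were not tested against all genes. Of the genes counted before adjustment, NRG4 and BACE1 were higher in the clones and the others lower. BACE1, of the shedding list, had 39.9 CPM in the parental library and 71.1, 77.5 and 73.0 CPM in the clones.

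**Figure D5:**
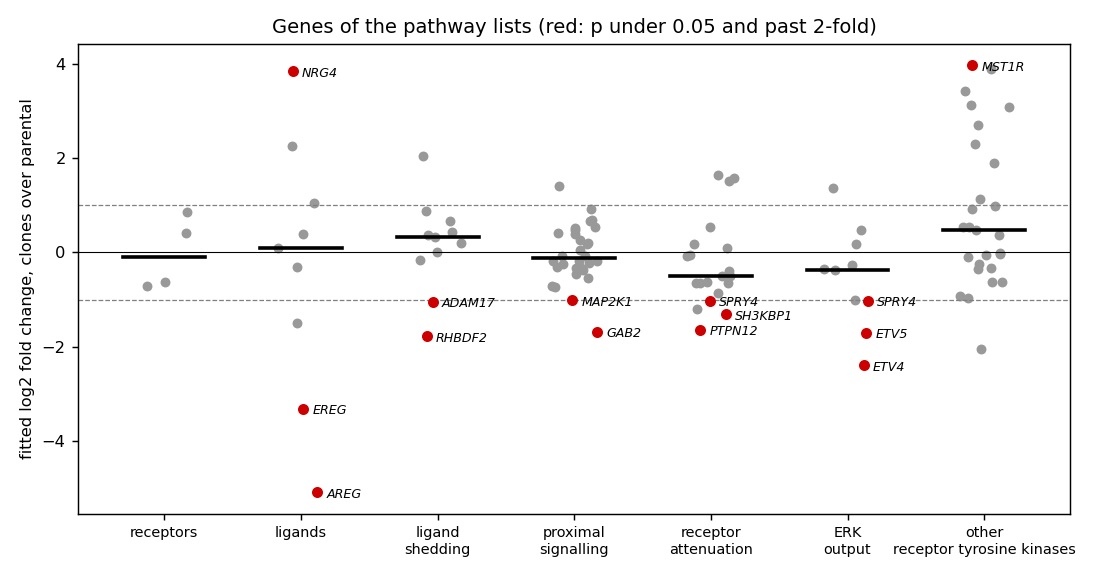
Fitted log2 fold change of the clones over the parental library for each tested gene of 7 lists, with 1 point per gene, a bar at the median of each list and dashed lines at 2-fold. Genes that meet the fold criterion are red and named, and AREG (-5.09) and NRG4 (3.84) are the lowest and highest of the ligands.

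The genes whose pattern over the 3 clones was most like that of a member were taken as the 3 nearest in Euclidean distance of the log2 ratios, among the 10709 genes that reached 10 CPM, all measured in the same 4 libraries. For EREG they were STC2 (0.78 log2 units away), CXCL2 (0.90) and SOD2 (0.97). STC2 had 534 CPM in the parental library and 68.6, 24.1 and 18.1 CPM in the clones. For AREG they were CLDN1 (1.40), CHAC1 and IL1B (both 1.5), which were farther away. TGFA was nearest to ROR1 (1.37), PCDH1 (1.96) and GADD45G (2.12), all of which were lowest in clone 6. Around EGFR (NANP 0.02, EEF1A2 0.06 and SGF29 0.06), ERBB2 (B3GNT9 0.07, PDLIM2 0.09 and GRN 0.09) and NRG1 (OR2W3 0.12, MIR210HG 0.18 and MAN1A1 0.26) the distances were smaller. OR2W3 had 3.91, 14.9, 5.28 and 3.18 CPM, the order of libraries seen for NRG1.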

How the data were processed

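For each of the 4 libraries the authors deposited unnormalized counts of reads per gene with exon coordinates on GRCh38. Per the labels' processing notes, which give no roles, bcl2fastq 2.17, Trimmomatic 0.36, STAR 2.5.2b, featureCounts of Subread 1.5.2 and DESeq2 were used, and the strand setting and annotation release were not given in the sources used here. Of 57500 gene identifiers, 56898 matched GENCODE release 29 by symbol and 54784 by coordinates, as did 9 of the 10 members (not ERBB3).

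The quasi-likelihood functions of edgeR 4.0.16 (glmQLFit, glmQLFTest; R 4.3.3) were run after filterByExpr, TMM scaling and estimateDisp, with condition as the sole term, on 22511 genes with 2 residual degrees of freedom. The common dispersion was 0.319. DESeq2 1.42.0 was the alternative test. Ratios of 1 library to another carry exact Clopper-Pearson 95% intervals, and ratios over all genes and around loci had 0.5 added to each count. Tables and figures were made in Python 3.11.15 (pandas 2.3.3, scipy 1.17.1, numpy 2.4.6, matplotlib 3.10.9), and both tests and the intervals were tested on simulated data. Named were the 10 members, the list genes that met the fold criterion or had a log2 ratio past 1 or -1 the same way in all 3 clones with at least 10 CPM, and the 3 nearest patterns. ERBB4, EGF, NRG3, ADAM10, BACE1, DUSP6, EPHA4, SPRY2, CXCL8, CXCL2, MTHFD2L, PGAP3, MIEN1, CD14, CDH5, VWF, TEK, AFP, PARM1 and the other CXCL genes were named after their values were seen. The members and lists were chosen with earlier results of these data known. A further leukocyte marker is not reported here. The alternatives were other scalings (RLE, upper quartile, library size), other filters, DESeq2, robust and bias-adjusted estimation, and each clone left out.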

Additional observations from a re-analysis of the deposited data

How the results depend on the processing

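Genes with an adjusted p under 0.05 numbered 1 in edgeR's quasi-likelihood test, 6 without a filter on low counts, 5 with bias-adjusted estimation, 1095 with DESeq2's Wald test and 0 with any clone left out (by the fold criterion 1466 to 3399 genes then passed). That criterion gave 2157 genes, 1202 lower and 955 higher. The higher genes numbered 1591 with DESeq2 and 641 to 1791 with a clone left out, and without clone 1 the total was 3399. Upper quartile scaling gave 1002 lower and 1124 higher, and shifted the log2 ratios by 0.05, 0.13 and 0.13 in clone 1, the library labelled clone 5 and clone 6. Under the 3 other scalings none of the 30 ratios of a member to the parental library changed sign, and the largest shift was 0.13. AREG and EREG met the fold criterion under every alternative run, and the count of members was 2 except without clone 1, when ERBB2 made it 3. The fitted log2 fold change reversed for HBEGF without clone 6 (-0.65 to 0.032 over the clones left out) and for BTC without clone 1 (-0.67 to 0.61). By the criterion the shedding list had 1 gene in place of 2 under upper quartile scaling, the signalling list 1 in place of 2 under RLE scaling, a minimum of 1 CPM and DESeq2, and the list of other receptor tyrosine kinases 0 in place of 1 at a minimum of 1 CPM, 2 with DESeq2 and 3 without clone 6. Other list counts moved by at most 1, except where a clone was left out. No paired analysis was possible because the parental library has no number in the labels that ties it to a clone.

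With 1 parental library, the spread of parental cultures is unknown, and edgeR's test found no member past an adjusted p of 0.05. Intervals cover counting error only. Depth limits EPGN in every library and AREG, TGFA and BTC in clone 6, where 4 to 17 counts were read.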

Other observations

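Receptor tyrosine kinases outside the EGFR family were read from a list of 27 genes, all of which were tested. By the fold criterion none was lower and 1 was higher (3.70%). The list had a median fitted log2 fold change of 0.48, against 0.10 over all genes tested, but its median log2 ratios in the single clones were -0.05, 0.38 and -0.0032, against -0.08, 0.03 and -0.0081 over all genes. The higher gene was MST1R, the receptor RON, with 3 counts in the parental library against 75 (clone 1), 46 (labelled clone 5) and 52 (clone 6). Its log2 ratios were 4.30 (exact 95% interval 2.70 to 6.61), 3.70 (2.06 to 6.03) and 3.99 (2.36 to 6.31). The adjusted p was 0.327 in edgeR's quasi-likelihood test and 0.0225 in DESeq2's Wald test. All of these levels were under 1 CPM, and with a minimum of 1 CPM the count of the list was 0.

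ROR1, an orphan receptor of Wnt signalling, was lower past a log2 ratio of -1 in all 3 clones, with 16.8 CPM in the parental library against 8.06 (clone 1), 3.64 (labelled clone 5) and 0.517 (clone 6). It did not meet the fold criterion. MET and AXL, abundant receptors in mesenchymal breast cancer cells, had 109 and 276 CPM in the parental library. In the clones MET had 128.9, 112 and 78.8 CPM and AXL had 470.3, 309 and 422 CPM, in the same order. DDR2, a collagen receptor, was low in clone 1 alone among the 4 libraries, at 4.11 CPM against 70.0 in parental cells and 77.9 and 53.6 in the other clones. MET, AXL and DDR2 were chosen after their values were seen.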
